A study of Homo sapiens with 6 samples.

Results

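Interferon-stimulated genes and the sensors that detect foreign RNA were examined after depletion of CLGN in Hep-G2, a long-established line from a human liver cancer. The members were 46 genes of the interferon response given by name, and all 46 were found by gene name among the 58735 genes of the deposited expression table. Messenger RNA had been sequenced from 6 libraries. In the sh-NC group (n = 3) the cells carried a negative control short hairpin RNA and were labelled wild type, and in the sh-CLGN group (n = 3) they carried a hairpin against CLGN and were labelled as knock down. Its product, calmegin, is a chaperone found in the endoplasmic reticulum. Both hairpins had been delivered by lentivirus and the cells selected with puromycin, so both groups carry a vector and were drug selected. Each group held 1 hairpin in 1 cell line, all 6 libraries carried the same batch label, and no label says whether the replicates were separate cultures. The p-values therefore measure the spread between these libraries, and an effect of the hairpin or of the culture cannot be told apart from loss of CLGN.

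The values are FPKM, read counts scaled by gene length and by a library size. The reads behind them could be recovered and summed to 14955816 to 16244639 per library. The library sizes used for scaling were not these sums, and ran from 13951689 to 15473421 in sh-NC and from 16145674 to 16964772 in sh-CLGN. Correlations of log2(FPKM + 1) across genes were 0.988 to 0.992 within groups and 0.937 to 0.945 between them. CLGN itself was at 24.1, 21.0 and 26.1 FPKM in sh-NC and at 9.48, 8.88 and 8.60 FPKM in sh-CLGN, in the direction of the labels. All 10 hepatocyte markers examined were expressed, among them ALB, at means of 2007 FPKM in sh-NC and 1076 FPKM in sh-CLGN, and AFP, at 2670 and 3782 FPKM.

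Interferons are secreted proteins that bind receptors on the cell surface. The receptors act through JAK kinases on STAT proteins. STAT2 and IRF9 belong to a complex that binds interferon-stimulated response elements in promoters. Inside the cell, RIG-I (encoded by DDX58) and MDA5 (IFIH1) detect double-stranded RNA and signal through the mitochondrial adaptor MAVS to IRF3, while TLR3 detects it in endosomes and signals through TICAM1. The induced genes encode antiviral effectors such as the IFIT, OAS, MX and IFITM proteins. Many are expressed at a low basal level in cells that have met no interferon, and the hepatocyte is a known responder to type I and type III interferons.

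The response element has the core GAAA, any 2 bases, GAAA, and this core was searched on both strands of RefSeq promoters (GRCh38.p14, from 250 bases before to 50 bases after each gene start), with overlapping matches counted. Of 36 members with a promoter in the table, 24 held the core in at least 1 promoter (66.7%), against 4.38% of all 27305 genes. The following 5 are shown because the first 3 belong to members that rose in sh-CLGN and the other pair to members that did not pass the test although their promoters hold as many copies or more. Capitals mark the matches. The windows are chr10:89392373-89392672 on the plus strand for IFIT1, chr11:320811-321110 on the minus strand for IFITM3, chr1:1013247-1013546 on the plus strand for ISG15, chr10:89414318-89414617 on the plus strand for IFIT5 and chr1:27672143-27672442 on the minus strand for IFI6.
IFIT1: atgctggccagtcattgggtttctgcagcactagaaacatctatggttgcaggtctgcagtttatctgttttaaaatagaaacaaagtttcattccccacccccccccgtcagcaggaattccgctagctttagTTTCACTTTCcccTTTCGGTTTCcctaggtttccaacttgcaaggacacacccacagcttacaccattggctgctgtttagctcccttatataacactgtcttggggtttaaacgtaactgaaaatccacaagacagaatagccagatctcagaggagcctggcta
IFITM3: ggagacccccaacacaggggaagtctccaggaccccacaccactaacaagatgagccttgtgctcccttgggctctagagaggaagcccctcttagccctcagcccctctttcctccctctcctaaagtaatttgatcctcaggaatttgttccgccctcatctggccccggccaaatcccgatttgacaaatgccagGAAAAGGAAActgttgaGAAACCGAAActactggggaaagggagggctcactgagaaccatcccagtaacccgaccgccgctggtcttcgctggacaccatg
ISG15: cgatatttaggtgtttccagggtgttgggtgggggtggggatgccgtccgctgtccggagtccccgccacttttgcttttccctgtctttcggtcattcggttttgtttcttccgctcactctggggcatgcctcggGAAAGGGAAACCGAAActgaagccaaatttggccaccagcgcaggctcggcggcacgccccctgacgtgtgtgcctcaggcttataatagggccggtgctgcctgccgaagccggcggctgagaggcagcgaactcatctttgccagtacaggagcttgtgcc
IFIT5: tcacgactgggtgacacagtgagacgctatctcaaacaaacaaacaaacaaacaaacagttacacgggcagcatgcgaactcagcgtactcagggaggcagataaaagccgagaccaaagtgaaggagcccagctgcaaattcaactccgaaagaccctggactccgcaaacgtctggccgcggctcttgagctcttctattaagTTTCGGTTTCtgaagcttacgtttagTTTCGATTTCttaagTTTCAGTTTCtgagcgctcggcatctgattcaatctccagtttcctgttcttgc
IFI6: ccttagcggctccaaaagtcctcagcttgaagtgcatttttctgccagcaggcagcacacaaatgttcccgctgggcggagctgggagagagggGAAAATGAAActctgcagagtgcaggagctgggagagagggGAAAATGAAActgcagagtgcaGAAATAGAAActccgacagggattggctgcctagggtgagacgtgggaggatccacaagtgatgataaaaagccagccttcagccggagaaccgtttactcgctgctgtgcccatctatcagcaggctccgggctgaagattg
The core was found 2 times in IFIT1, IFITM3 and ISG15 and 3 times in IFIT5 and IFI6. Among members with a promoter in the table, it was present in 11 of 16 that rose in either of the fits described below, in 0 of 2 that fell and in 13 of 18 others. A match describes the sequence and shows no binding.

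Several interferon-stimulated effectors were higher in sh-CLGN cells, while the sensing and signalling genes upstream of them went both ways. IFITM3, IFIT1 and IFIT3 rose past a log2 change of 1, and PARP14, OAS1, SAMD9, OAS3, ISG15, STAT2, IFITM2 and DDX58 rose by less. IRF3, IRF1, MAVS and MX2 fell. Of the 23 tested members, 11 were called higher (47.8%, against 26.7% of all tested genes) and 4 lower (17.4%, against 39.0%). IFIT1 and SAMD9 passed the expression filter only through sh-CLGN. Without them 9 of 21 were higher (42.9%), for which no matching share of all genes was computed. In bulk RNA, less RNA per cell and fewer expressing cells cannot be told apart. A further 8 members with low expression, among them DDX60, IFIT2 and EPSTI1, rose in a fit on reads. SAMD9L, also among them, had 0 reads in sh-NC and entered that fit only through sh-CLGN. In that fit 25.1% of all such weakly expressed genes were higher and 4.57% lower. Of the 8 calls of members, 3 also held in a fit on FPKM without a filter. RSAD2, IFI44, IFI44L, IFI16, BST2, OASL and XAF1 were at or near 0 reads.

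Expression was compared with limma on log2(FPKM + 1) in the 13074 genes that reached 1 FPKM in 3 or more libraries, and p-values were adjusted over all of them. For weakly expressed genes this scale gives smaller changes than the ratio of the means. Of the 46 members, 23 passed this filter. Of these, 11 were higher at an adjusted p of at most 0.05 (47.8%, against 26.7% of all tested genes), 4 were lower (17.4%, against 39.0%) and 8 did not pass. With a log2 change of at least 1 as well, 3 were higher (3.09% of all tested genes) and 0 were lower (3.19% of all tested genes). The 3 libraries of each group did not overlap, with sh-CLGN higher, in 11 members (28.7% of all tested genes), and with sh-CLGN lower in 5 (41.5%). IFIT1 and SAMD9 reached 1 FPKM in no sh-NC library and so passed the filter only through the group in which they were higher. Without them 9 of 21 members were higher (42.9%). The share of all tested genes without such genes was not computed. The median log2 change was 0.25 over the 23 members, 0.12 without this pair and -0.08 over all tested genes. In a fit on genes with a mean of at least 0.1 FPKM over all libraries, 34 members were tested, of which 14 were higher (20.7% of all genes in that fit) and 4 lower (22.5%).

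**Figure D1:**
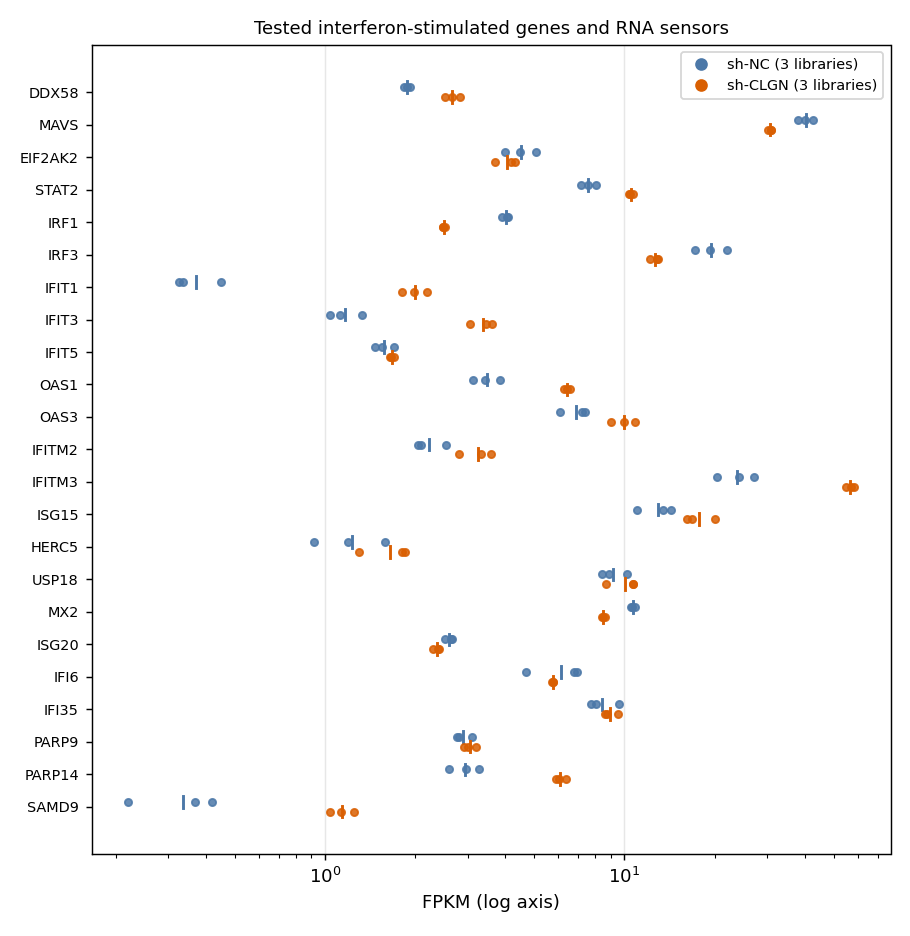
FPKM of the 23 tested members in each library (log axis); blue points are the 3 sh-NC libraries, orange points the 3 sh-CLGN libraries, and the short bars their means. The groups are fully apart in 16 members, with the largest ratio of means in IFIT1, from a mean of 0.371 to 1.999 FPKM.

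Members below the filter were tested with voom on the recovered reads, in genes with at least 10 reads over the 6 libraries. Of the 23 members below the filter, 15 had that many. Of these, 8 were higher (25.1% of 9013 such genes below the filter), 0 were lower (4.57%) and 7 did not pass. Among the 8, SAMD9L had 0 reads in all sh-NC libraries and 11 over the sh-CLGN libraries. It therefore entered this fit only through the group in which it was higher, and its direction there is no support. Across the table, weakly expressed genes were called higher more often than lower, and the count of 8 has to be read against that share. In limma on all expressed genes with a pseudocount of 0.1, the direction was the same in 8 of the 8, but 3 passed, namely IFIT2 (adjusted p = 0.0144), DDX60 (adjusted p = 0.0185) and EPSTI1 (adjusted p = 0.0137). The calls of IFIH1, TLR3, IRF9, OAS2 and SAMD9L were lost there, with adjusted p from 0.106 to 0.152.

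Among the sensors, DDX58 (RIG-I) rose modestly. It was at 1.93, 1.84 and 1.89 FPKM in sh-NC and at 2.52, 2.82 and 2.66 FPKM in sh-CLGN, and the groups did not overlap. The log2 change was 0.35 (SE 0.070, limma adjusted p = 0.00306). DDX58 (ENSG00000107201) lies on chromosome 9, 32455705 to 32526324 (GRCh38, as for all gene positions here). IFIH1, the sensor of long double-stranded RNA, had 38, 64 and 40 reads in the control libraries against 84, 83 and 76 after CLGN depletion, and rose in voom (log2 change 0.64, SE 0.205, adjusted p = 0.0112). TLR3 had 11, 14 and 9 reads in the control libraries against 25, 23 and 34 after CLGN depletion, and also rose in voom (1.07, SE 0.349, adjusted p = 0.0126). All sh-CLGN libraries lay above all sh-NC libraries in the 3 sensors, as they did in 28.7% of all tested genes. IFIH1 and TLR3 lay below the filter. Their calls were lost in limma without a filter at a pseudocount of 0.1 (adjusted p = 0.132 and 0.152). DHX58, which encodes LGP2, a regulator of the former pair, had 1 to 5 reads per library and no difference was detectable at this depth.

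MAVS, through which RIG-I and MDA5 signal, was the most abundant member in sh-NC cells and moved the other way. It was at 40.2, 42.5 and 37.99 FPKM in sh-NC and at 30.8, 30.1 and 30.8 FPKM in sh-CLGN. The log2 change was -0.38 (SE 0.053, limma adjusted p = 0.000399), with no overlap, but quantile normalization reduced it to -0.10 and ended the call (adjusted p = 0.0964). EIF2AK2, the RNA-activated kinase PKR that shuts down translation, went from 4.51 ± 0.538 to 4.06 ± 0.313 FPKM (SD, n = 3). The groups overlapped and the change of -0.12 did not pass (95% interval -0.32 to 0.09, adjusted p = 0.267).

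The transcription factors divided. STAT2, a subunit of the interferon-activated complex, rose from 7.15, 7.55 and 8.05 FPKM in sh-NC to 10.3, 10.5 and 10.7 FPKM in sh-CLGN (log2 change 0.42, SE 0.057, limma adjusted p = 0.000372). IRF9, the subunit of that complex that recognises DNA, had 9, 19 and 13 reads in the control libraries against 32, 26 and 35 after CLGN depletion, and rose in voom (1.03, SE 0.330, adjusted p = 0.0112). Both factors were apart in all libraries, as were 28.7% of all tested genes with sh-CLGN higher. The call of IRF9 was lost in limma without a filter at a pseudocount of 0.1 (adjusted p = 0.106). IRF3, the factor that the RNA sensors activate, fell from 19.3, 22.0 and 17.2 FPKM to 12.9, 12.2 and 13.0 FPKM (-0.58, SE 0.086, adjusted p = 0.000582). IRF1, itself an interferon-induced activator, fell from 4.09, 4.07 and 3.89 FPKM to 2.49, 2.51 and 2.48 FPKM (-0.52, SE 0.060, adjusted p = 0.000160). IRF3 and IRF1 kept their calls in all alternatives run. IRF7, the amplifier of type I interferon production, had 19 to 44 reads per library, with overlapping groups (voom adjusted p = 0.524).

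The IFIT genes encode proteins that bind viral RNA and lie side by side on chromosome 10, where the 4 members span 137 kb from 89283694 to 89421001. IFIT1 (ENSG00000185745) was at 0.451, 0.327 and 0.336 FPKM in sh-NC and at 2.20, 1.81 and 1.99 FPKM in sh-CLGN, from 22 to 29 and from 137 to 172 reads per library. The ratio of the means was 5.39, and the log2 change on the log2(FPKM + 1) scale was 1.13 (SE 0.096, limma adjusted p = 3.47e-05). IFIT3 (ENSG00000119917) rose from 1.33, 1.04 and 1.13 FPKM to 3.44, 3.05 and 3.61 FPKM, a ratio of 2.89 (log2 change 1.01, SE 0.088, adjusted p = 3.88e-05). No library of one group entered the range of the other in either gene. IFIT2 had 14, 15 and 18 reads in the control libraries against 58, 47 and 39 after CLGN depletion, and rose in voom (1.40, SE 0.288, adjusted p = 0.000208). Their neighbour IFIT5 was at 1.57 ± 0.123 and 1.67 ± 0.0288 FPKM (SD, n = 3), with overlapping groups and no call (0.05, 95% interval -0.13 to 0.23, adjusted p = 0.568). Its interval lay below the changes of IFIT1 and IFIT3, although its promoter holds the response element core 3 times.

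The OAS genes encode enzymes that double-stranded RNA switches on to make short oligoadenylates, and 3 of them form a cluster of 105 kb on chromosome 12. OAS1 rose from 3.85, 3.13 and 3.42 FPKM in sh-NC to 6.41, 6.26 and 6.57 FPKM in sh-CLGN (log2 change 0.73, SE 0.073, limma adjusted p = 7.29e-05). OAS3 rose from 6.11, 7.197 and 7.41 FPKM to 9.02, 9.94 and 10.9 FPKM (0.47, SE 0.088, adjusted p = 0.00199). OAS2 had 2, 6 and 3 reads in the control libraries against 13, 9 and 13 after CLGN depletion, and rose in voom (1.47, SE 0.546, adjusted p = 0.0270). The 3 neighbours were thus higher in all sh-CLGN libraries than in any sh-NC library, at very different levels. Such a separation was seen in 28.7% of all tested genes. OAS2 had few reads, and its call was lost in limma without a filter at a pseudocount of 0.1 (adjusted p = 0.129). OASL, which lies apart from them, had at most 2 reads in any library.

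IFITM proteins sit in cell membranes and hinder the entry of viruses. IFITM3 (ENSG00000142089; chromosome 11, 319669 to 327537) was at 27.1, 24.1 and 20.4 FPKM in sh-NC and at 56.9, 54.8 and 58.5 FPKM in sh-CLGN, which made it the most abundant member in sh-CLGN cells. The means differed by a ratio of 2.38, and the log2 change of 1.23 (SE 0.093, limma adjusted p = 2.07e-05) was the largest among tested members on this scale, while IFIT1 had the largest ratio of means. IFITM2 rose from 2.04, 2.53 and 2.09 FPKM to 3.32, 3.60 and 2.81 FPKM (0.40, SE 0.097, adjusted p = 0.00761). IFITM1, within the same 19.9 kb, had 0 or 1 reads per sh-NC library and 1 to 3 per sh-CLGN library, at or under the floor of 3 reads. The IFITM genes are close relatives that could share reads, and IFITM1 lies within the annotated span of IFITM2 on the same strand. How reads of that overlap were counted is not given. How the signal divides among the IFITM genes is therefore uncertain. BST2, which encodes tetherin, a protein that holds budding viruses at the membrane, had 0 or 1 reads in each library.

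ISG15 is a ubiquitin-like protein that is coupled to other proteins by ligases of the HERC family and removed by USP18. ISG15 rose from 13.5, 14.3 and 10.99 FPKM in sh-NC to 20.1, 16.1 and 16.8 FPKM in sh-CLGN (log2 change 0.42, SE 0.111, limma adjusted p = 0.01003). The groups did not overlap, although the gap was narrow. HERC5, the main ligase for ISG15, was at 1.23 ± 0.336 and 1.65 ± 0.307 FPKM and did not pass (0.25, 95% interval -0.06 to 0.57, adjusted p = 0.138). Without sh-NC replicate 3, its highest control library, it passed at 0.36 (adjusted p = 0.0406), and it also passed with scaling by read totals (0.37). Its neighbour HERC6 had 18 to 28 reads per control library against 36 to 44 after CLGN depletion and missed the threshold in voom (0.60, adjusted p = 0.0565). USP18, which also restrains the type I interferon receptor, was at 9.15 ± 0.909 and 10.01 ± 1.18 FPKM, with overlapping groups (0.12, 95% interval -0.11 to 0.34, adjusted p = 0.321). USP18 passed as higher with quantile normalization, GC correction or scaling by read totals.

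The MX genes encode dynamin-like GTPases that block virus particles and lie within 97.3 kb on chromosome 21. MX2 fell slightly, from 10.5, 10.9 and 10.6 FPKM in sh-NC to 8.60, 8.41 and 8.47 FPKM in sh-CLGN (log2 change -0.30, SE 0.048, limma adjusted p = 0.000942), and the groups did not overlap. Scaling by read totals reduced this to -0.12 and ended the call (adjusted p = 0.0648). MX1, a classic marker of interferon exposure, had 68, 66 and 77 reads in the control libraries against 83, 61 and 93 after CLGN depletion, at 0.556 FPKM in each group (voom adjusted p = 0.926). RSAD2 (viperin) had 3 reads in sh-NC replicate 1 and 0 in each other library. CMPK2, its neighbour, had 5 to 21 reads per control library against 4 to 11 after CLGN depletion (voom -0.77, adjusted p = 0.249). The exonuclease gene ISG20 was at 2.60 ± 0.0788 and 2.36 ± 0.0646 FPKM (-0.10, adjusted p = 0.221). Its groups did not overlap, yet the change failed the test. It was 0.12 after GC correction and passed as lower with quantile normalization (-0.18, adjusted p = 0.0430). TRIM22, an antiviral ubiquitin ligase, had 0 to 3 reads per control library against 4 to 7 after CLGN depletion (voom adjusted p = 0.0666).

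None of the 6 genes named IFI was called. IFI6, which acts on the endoplasmic reticulum and in survival of infected cells, was at 6.79, 6.97 and 4.71 FPKM in sh-NC and at 5.79, 5.78 and 5.73 FPKM in sh-CLGN. The sh-CLGN libraries lay inside the control range (-0.06, 95% interval -0.35 to 0.22, adjusted p = 0.664). The lowest control was sh-NC replicate 3. Without it the change was -0.22 and passed (adjusted p = 0.00812). IFI35 was at 8.43 ± 0.980 and 8.95 ± 0.471 FPKM (0.08, 95% interval -0.11 to 0.27, adjusted p = 0.410) and passed as higher with GC correction, read totals, TPM or quantile normalization, with log2 changes of 0.21 to 0.33. IFI27 had 7 to 20 reads per library, and IFI44L 0 to 2. IFI44 and IFI16, the latter a sensor of DNA, had 0 reads in all libraries; a level under about 3 reads per library was not detectable at this depth.

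PARP14, an enzyme that adds ADP-ribose to proteins, rose from 2.60, 2.96 and 3.28 FPKM in sh-NC to 6.06, 5.89 and 6.39 FPKM in sh-CLGN, a ratio of 2.08 (log2 change 0.85, SE 0.078, limma adjusted p = 4.95e-05). PARP9, which lies with PARP14 in a stretch of 203 kb on chromosome 3, was at 2.88 ± 0.185 and 3.04 ± 0.144 FPKM (0.06, 95% interval -0.10 to 0.22, adjusted p = 0.486). The interval of PARP9 lay below that of PARP14, 0.67 to 1.03, and PARP9 passed as higher with scaling by read totals (0.20, adjusted p = 0.0375). SAMD9, a restriction factor against poxviruses, went from 0.418, 0.220 and 0.368 FPKM to 1.04, 1.13 and 1.25 FPKM (0.68, SE 0.106, adjusted p = 0.000759). Its log2 change was 0.35 after GC correction. SAMD9L, next to it on chromosome 7, had 0 reads in all sh-NC libraries and 6, 3 and 2 in sh-CLGN. The control libraries lay under the floor of 3 reads per library, so no fold is given. DDX60, a helicase that assists RIG-I, had 19, 8 and 10 reads in the control libraries against 55, 52 and 54 after CLGN depletion, and rose in voom (2.02, SE 0.326, adjusted p = 1.04e-05). EPSTI1 had 18, 20 and 26 reads against 71, 56 and 56, and rose as well (1.33, SE 0.252, adjusted p = 8.35e-05). XAF1, an antagonist of an inhibitor of apoptosis, had 4 reads in sh-CLGN replicate 3 and 0 elsewhere.

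**Figure D2:**
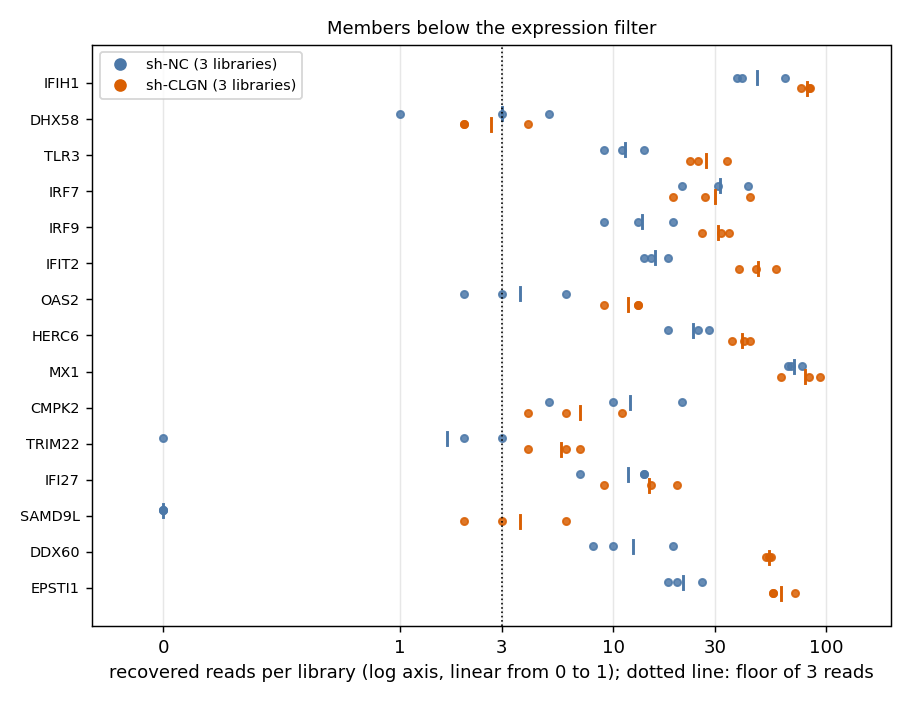
Recovered reads per library for the 15 members below the expression filter with at least 10 reads in all (blue sh-NC, orange sh-CLGN, short bars the means; log axis, linear from 0 to 1). DDX60, EPSTI1 and IFIT2 lie clearly to the right in sh-CLGN, MX1 and IRF7 overlap, and SAMD9L has 0 reads in sh-NC.

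**Figure D3:**
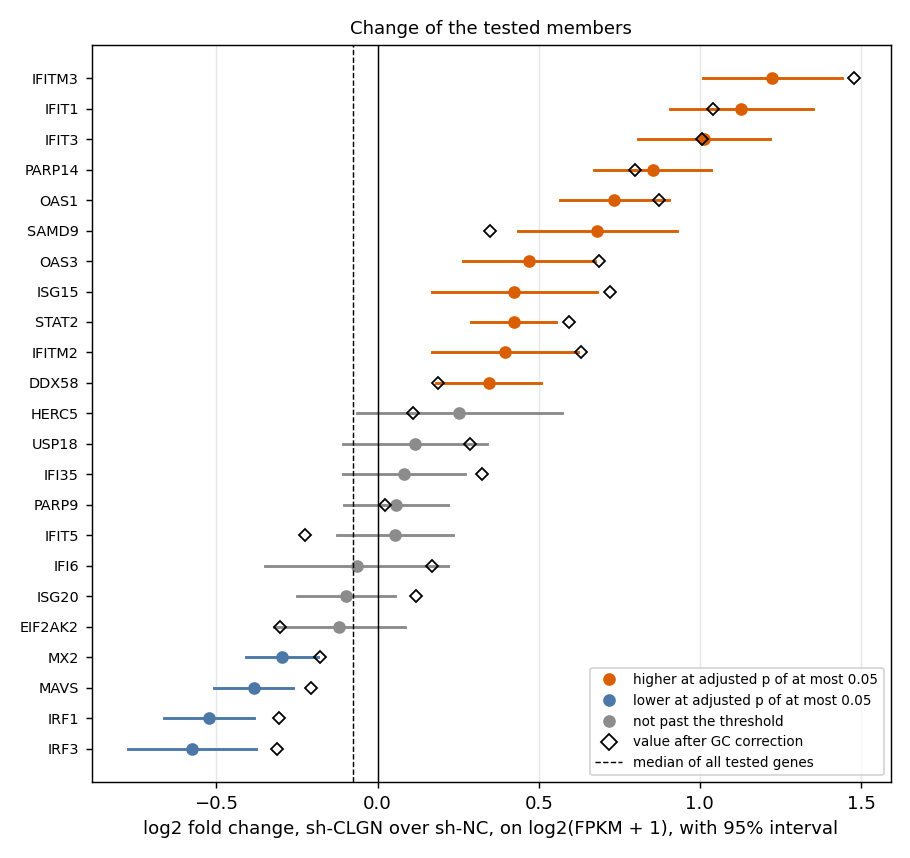
Log2 fold change of each tested member with its 95% interval from limma; orange is higher and blue lower at an adjusted p of at most 0.05, grey did not pass, and open diamonds give the value after GC correction. IFITM3 at 1.23 stands highest and IRF3 at -0.58 lowest, and the dashed line marks the median of all tested genes at -0.08.

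The members differ widely in base composition, from 36.1% GC in SAMD9 to 64.0% in ISG15. The 11 members called higher had a median of 49.8% GC and the 4 called lower of 53.4%, against 48.9% in all tested genes. With the GC trend removed from each library, the 15 calls were kept. In that fit EIF2AK2 (-0.30) and IFIT5 (-0.22) passed as lower and USP18 (0.29) and IFI35 (0.33) as higher.

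To see whether the rest of the pathway moved, genes that are not members were examined by role. The 21 interferon genes (13 IFNA genes, IFNB1, IFNE, IFNK, IFNW1, IFNG and IFNL1 to IFNL3) had 0 reads in each of the 6 libraries, which allows up to 3 reads per library. Of 6 receptor chains, 4 were tested, and 2 rose and 2 fell, where 26.7% of all tested genes were higher and 39.0% lower, as for the counts of the lists that follow. IFNAR1, a chain of the type I receptor, rose from 5.69, 5.403 and 6.26 FPKM to 7.85, 7.62 and 7.67 FPKM (log2 change 0.36, limma adjusted p = 0.00132), and IFNGR1 of the type II receptor rose by 0.34 (adjusted p = 0.000404). IFNLR1, the chain specific to type III interferon, fell from 7.21, 7.22 and 6.93 FPKM to 3.24, 3.84 and 3.96 FPKM (-0.80, SE 0.073, adjusted p = 5.08e-05), and IFNGR2 fell by 0.40. IFNAR2, the other chain of the type I receptor, lay below the filter. It fell in voom, from 1.30, 0.876 and 1.23 FPKM to 0.575, 0.569 and 0.483 FPKM (-1.04, SE 0.213, adjusted p = 0.000197), with no overlap.

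Of 11 genes that relay or brake the receptor signal, 4 rose, 3 fell and 4 did not pass. JAK1, the kinase shared by the type I, II and III receptors, fell from 25.9, 29.2 and 28.2 FPKM to 11.7, 12.1 and 12.6 FPKM (-1.13, SE 0.059, limma adjusted p = 4.38e-06). SOCS3, a feedback inhibitor of JAK kinases, fell from 5.45, 5.14 and 4.21 FPKM to 1.72, 1.87 and 2.13 FPKM (-1.02, SE 0.099, adjusted p = 6.25e-05). Both lay past a log2 change of 1, with groups that did not overlap. JAK2, PTPN6 and PTPN11 were among the genes that rose, JAK2 by 0.52 (adjusted p = 0.00218).

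Of 22 further genes of nucleic acid sensing, 12 were tested, and 1 rose (8.33%, against 26.7% of all tested genes), 8 fell (66.7%, against 39.0%) and 3 did not pass. TICAM1, the adaptor of TLR3, fell from 10.9, 11.3 and 8.43 FPKM to 3.94, 3.05 and 3.82 FPKM (-1.28, SE 0.119, limma adjusted p = 5.27e-05). NLRX1, a mitochondrial protein that restrains MAVS, fell from 5.31, 5.01 and 5.04 FPKM to 1.72, 1.75 and 1.94 FPKM (-1.13, SE 0.066, adjusted p = 6.78e-06). TBK1, the kinase that activates IRF3, was the gene that rose (0.53, adjusted p = 0.000815). The ligase TRIM25, which activates RIG-I, and the RNA editor ADAR fell by 0.61 and 0.38, and quantile normalization ended the call of ADAR. MYD88, 1 of the 8, lost its call with GC correction, read totals, TPM and quantile normalization. Of the 3 that did not pass, TARBP2 passed as higher in each of these fits. TANK passed as lower with GC correction and TRAF6 with quantile normalization. IFNAR2, IFNGR2, JAK2, PTPN6, PTPN11, TBK1, TRIM25, ADAR, MYD88, TARBP2, TANK and TRAF6 were chosen after their values were seen. The same holds for UBE2L6, HELZ2, PARP10 and SP100 among the genes that follow.

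Of 38 further interferon-induced genes, 25 were tested, and 9 rose, 3 fell and 13 did not pass, with a median log2 change of -0.02. APOL6 rose by 0.73 (limma adjusted p = 7.72e-05), the chemokine CXCL10 by 0.86 (adjusted p = 9.66e-05) and the GTPase GBP1 by 0.85 (adjusted p = 0.000157). CXCL10 was at 4.39, 3.73 and 4.34 FPKM in sh-NC and at 9.52, 7.83 and 7.79 FPKM in sh-CLGN, with groups fully apart. UBE2L6, the conjugating enzyme for ISG15, rose by 0.59, and HELZ2 fell by 0.66. GBP1, PARP10 and SP100 reached 1 FPKM in no sh-NC library and so passed the filter only through the group in which they were higher. Without them 6 of 22 rose (27.3%). The 26.7% of all tested genes still includes genes that passed in this way, so the shares are not of like sets. The lists were chosen with results of these libraries known and got no test of their own.

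**Figure D4:**
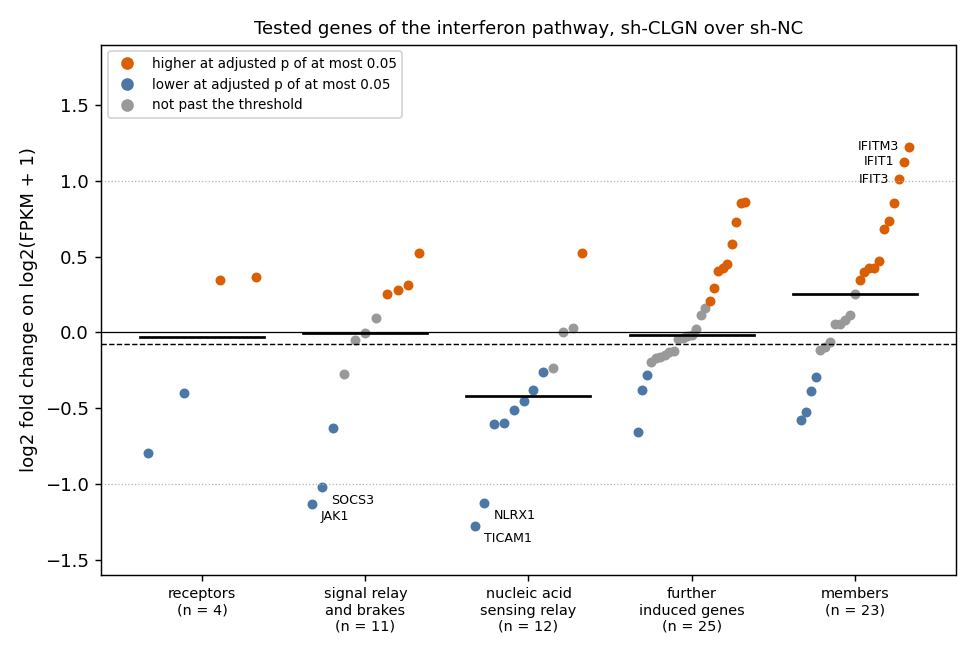
Log2 fold change of the tested genes of each role (points; orange higher, blue lower, grey not past an adjusted p of 0.05; thick bars are medians, the dashed line the median of all tested genes). The nucleic acid sensing relay lies lowest, with a median of -0.42, and the members have a median of 0.25, or 0.12 without IFIT1 and SAMD9, which passed the filter only through sh-CLGN.

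Markers of other cell types were read in the same libraries. Of 15 immune cell markers, 4 had 0 reads in all libraries and 8 at most 3 in any. PTPRC, which encodes the common leukocyte antigen CD45, had 0 reads in sh-NC and 5 over the 3 sh-CLGN libraries, and the plasmacytoid dendritic cell markers CLEC4C and LILRA4 had 0. The summed level of the list was 71.3 to 78.7 FPKM in sh-NC and 63.7 to 71.5 FPKM in sh-CLGN, most of it LYZ. Of 10 fibroblast and stellate cell markers, 6 were tested and 6 rose, 4 of which passed the filter only through sh-CLGN, and the sum of the list went from 7.65 to 9.20 FPKM in sh-NC to 64.8 to 66.9 FPKM in sh-CLGN. COL1A2 made up 38.3 to 39.4 FPKM of the latter, and DCN had 0 reads in sh-CLGN. Their part in the results for the members was not tested. Of 5 endothelial markers, 3 had at most 3 reads in any library, and the sum was 3.36 to 3.67 FPKM in sh-NC and 2.38 to 2.65 FPKM in sh-CLGN.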

How the data were processed

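FPKM values of each gene in every library were deposited by the authors in 1 table. The submitters' processing notes name HISAT2 2.0.5, featureCounts and GRCh38, without roles. Strand handling is not given in the sources used here, so reads of paralogs, overlapping and antisense genes may be split or left uncounted. All 58735 gene positions equalled GENCODE 29. FPKM times gene length gave whole reads for 100% of values (tolerance 0.01), with a floor of 3 reads that covers counting error only. KD columns were read as sh-CLGN.

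Groups were compared with limma 3.58.1 (R 4.3.3) on log2(FPKM + 1), with moderated variances that follow mean expression, two-sided, with Benjamini-Hochberg adjustment over 13074 genes. Libraries of equal number did not deviate together (correlations -0.02, -0.05 and -0.15). GC content came from GENCODE 29 transcripts (99.95% of tested genes), and a lowess trend (span 0.3) was removed per library. Alternatives were TPM, a pseudocount of 0.1, no filter, a filter on mean FPKM (0.1), read totals, quantile normalization, GC correction, voom, no trend, the replicate block, and leaving out each library. Voom including genes from 10 reads upwards, and no filter with a pseudocount of 0.1, were added after seeing the data. Fits were tested on simulated data. Figures used Python 3.11.15 and matplotlib 3.10.9.

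The members and lists were chosen with earlier results of these data known. Named genes were all members, and of each further list those past both thresholds, or else the 3 with the smallest adjusted p, beside those said to be chosen later. CGAS stands in the table for MB21D1 of the list. Some genes of the further lists are not reported here.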

Additional observations from a re-analysis of the deposited data

How the results depend on the processing

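Of the 23 tested members, 10 kept direction and side of the threshold in all 19 alternatives run, 8 of them called higher and 2 lower. IFIT1 kept both in the 16 that gave it a value. The count called higher lay between 9 and 12 with 1 library omitted and was 19 with voom including genes from 10 reads upwards, where 38 members were tested. In that voom fit 11347 of all 22042 genes were called, 50.7% of these calls being higher. The count called lower ranged from 3 to 6 over the other alternatives. Over the alternatives, 35.5% to 59.2% of the calls among all genes were higher. The count past both thresholds, 3, was 5 with a pseudocount of 0.1, with TPM and with voom on recovered reads, 1 with quantile normalization, 8 without a filter at a pseudocount of 0.1, 12 with voom including genes from 10 reads upwards, and 1 to 3 with a library left out. It was 1 without sh-CLGN replicate 1 or without sh-CLGN replicate 3, where IFIT1 no longer passed the filter and IFIT3 fell just under a log2 change of 1. The share of all genes past both thresholds is given for the main comparison only. Without that share, the counts of the other fits, among them those that admit weakly expressed genes, are not a result about the members.

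The median log2 change of tested members, 0.25, was 0.41 with a pseudocount of 0.1, 0.089 without a filter, 0.21 with a filter on mean FPKM, 0.47 with TPM, 0.37 with read totals, 0.29 with GC correction, 0.43 with voom on recovered reads, 0.39 without a filter at a pseudocount of 0.1, 0.48 with voom including genes from 10 reads upwards, and 0.10 to 0.32 with a library left out. The median of all genes shifted upwards as well, by 0.11 with TPM and by 0.16 with read totals. It shifted by 0.23 without a filter at a pseudocount of 0.1 and by 0.19 with voom including genes from 10 reads upwards. The share of calls that were higher, 40.7%, became 52.2%, 59.2%, 48.9% and 50.7% in these fits, in that order.

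EIF2AK2 turned to 0.040 with read totals. IFIT5 turned to -0.086 with quantile normalization and -0.22 with GC correction. ISG20 turned to 0.041 with read totals and 0.12 with GC correction. IFI6 turned to 0.052 with TPM, 0.10 with read totals, 0.0018 with quantile normalization and 0.17 with GC correction, and ranged from -0.22 to 0.021 with a library left out, among them 0.0052 without sh-NC replicate 1. None of these 4 genes passed the test in the main comparison. The cause was not tested.

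The libraries share only a number, so the replicate block pairs nothing known. With it 11 members were higher and 4 lower, while of 8038 calls over all 13074 genes 40.8% were higher. With the block and GC correction the median was 0.29, IFIT5 was at -0.22, ISG20 at 0.12 and IFI6 at 0.17. In that fit DDX58 (adjusted p = 0.0787) and SAMD9 (adjusted p = 0.0504) were no longer called.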
